A study of Mus musculus with 14 samples.

Results

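A group of 65 array probes reached its highest level in tumour microenvironment tissue 4 days after tumour inoculation and was lower both at day 14 and in control tissue. These 65 probes were chosen out of 45281 on the array by their measured levels. A probe was taken if its detection p was under 0.05 on all 6 day 4 arrays, if its lowest day 4 level lay above its highest day 14 and its highest control level, and if its day 4 mean exceeded both other means by at least 0.5 on the log2 scale. A level is log2 of the probe signal plus an offset of 16, quantile-normalized over the 14 arrays. The array's own background stays in the signal, so differences of dim probes are compressed on this scale. The 65 probes carried 53 gene symbols on 61 probes, and 4 probes had no gene name in the annotation used here.

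Total RNA of BALB/C mice labelled as 8 weeks old was hybridised to 1-colour Illumina bead arrays, 1 array per sample. The groups were tumour microenvironment tissue 14 days after inoculation (5 samples), tumour microenvironment tissue 4 days after inoculation (6 samples) and control tissue (3 samples). The tumour was grown from AB1, which is a mouse line of mesothelioma. Not stated in the labels are which organ or site the control tissue came from, whether tumour cells were in the samples, how control animals were handled, and whether replicates were separate animals; p-values here therefore reflect only how far these samples spread, and that spread may be technical.

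Many named members belong to skeletal muscle or epidermis, and some to fat cells or lipid metabolism. Skeletal muscle contracts through sarcomeres, in which myosin filaments pull on actin filaments that are held at the Z disc by alpha-actinin and regulated by tropomyosin. The epidermis renews itself from basal keratinocytes, which sit on the basement membrane by hemidesmosomes; cells that move upwards make keratins, secreted proteins such as suprabasin and dermokine, and at last the cornified envelope of loricrin, filaggrins and late cornified envelope proteins. Fat cells store triglycerides, release them with lipases and secrete adiponectin. The grouping by role used below was made by hand after the members' names were known, with 10 probes of 8 genes under striated muscle, 14 probes of 12 genes under epidermis, 5 probes of 5 genes under lipid and 32 probes of 28 genes under other.

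The rule used day 4 against control and day 4 against day 14, so the sizes of these differences in the members describe the choice and are given without a test. Over the 65 members the median log2 difference was 0.79 for day 4 minus control, with a range of 0.50 to 1.79. For day 14 minus day 4 it was -1.14, with a range of -2.37 to -0.56. Over all 14916 probes tested, both medians lay within 0.01 of 0, where quantile normalization holds them. The 65 members averaged 7.97 ± 0.16 on the day 14 arrays (SD of array means, n = 5), 9.22 ± 0.07 on the day 4 arrays (SD, n = 6) and 8.32 ± 0.19 on the control arrays (SD, n = 3). Of 5576 probes detected on all day 4 arrays, 178 had separated arrays and 65 of those also met both margins. Just inside the margin, the smaller of the 2 differences was 0.504, 0.521 and 0.538, and just outside it was 0.496, 0.491 and 0.476. Just inside the separation, the gap between the lowest day 4 level and the highest other level was 0.0022, 0.0198 and 0.0291, and just outside it was 0, -0.0101 and -0.0105. A further 103 probes met detection and both margins but overlapped with another group, 29 of them with a gap above -0.1.

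**Figure D1:**
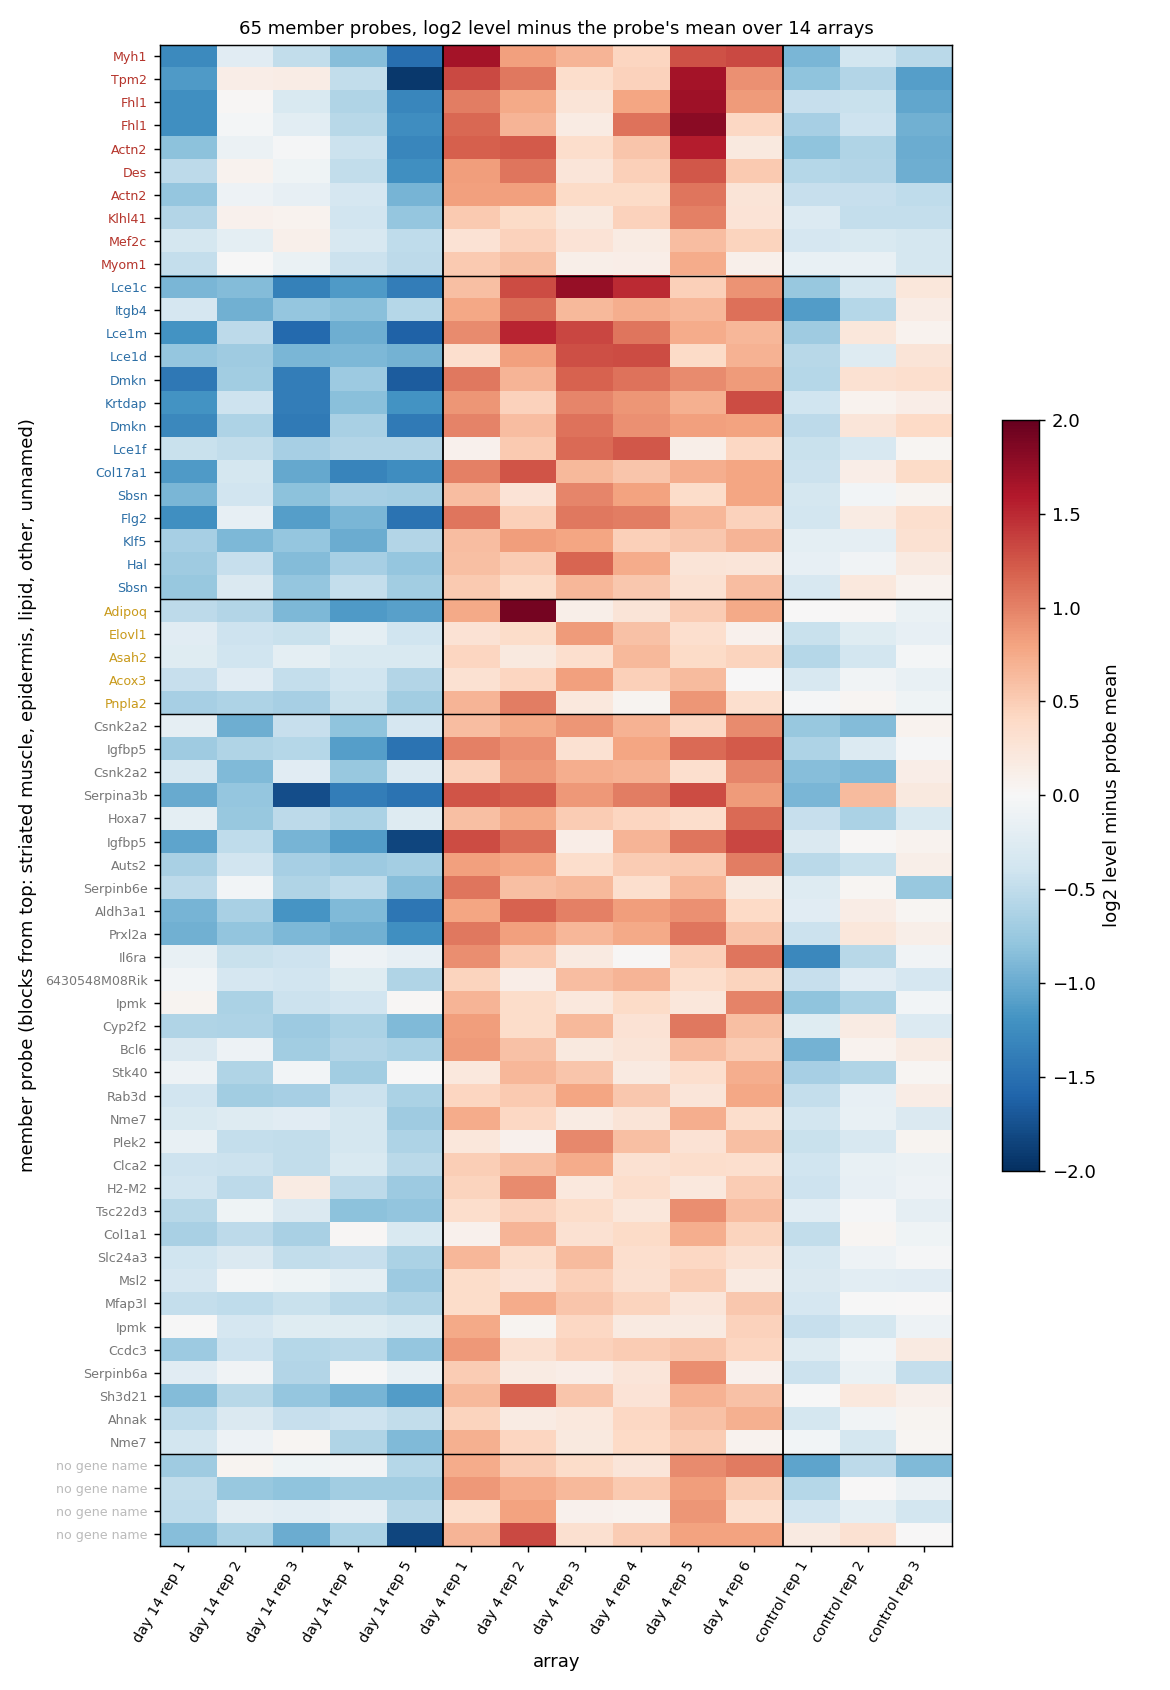
Log2 level of the 65 member probes (vertical axis, in blocks by role) on the 14 arrays (horizontal axis), drawn as the difference from each probe's mean over all arrays, red above and blue below. The rule makes every day 4 column higher than the rest. The epidermal block is bluest at day 14, while in the muscle block day 14 replicates 2 and 3 stand above the other day 14 arrays.

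The separation depended on the normalization. With the arrays scaled to a common median, 0 of the 65 probes still had separated arrays, although all 65 kept a day 4 mean above both other means and 37 kept both margins. Overall brightness differed between arrays of a group, with the 95th percentile of signal between 122 and 236 at day 14, between 110 and 198 at day 4 and between 160 and 181 in control. Detected probes numbered 7059 to 13867 per array at day 14, 8257 to 12370 at day 4 and 10659 to 11772 in control. The dimmest arrays by both measures were day 14 replicate 5 and day 4 replicate 2. Without these 2 arrays 73 probes met the rule, 62 of them among the 65, and with a common median as well 12 did, 11 of them among the 65.

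Members were detected in all 3 groups. All 65 were detected on every control array. At day 14, 51 were detected on all 5 arrays, 13 on 4 arrays and 1 on 3 arrays. Of the detections missed, 14 were on day 14 replicate 5 and 1 on day 14 replicate 1. When the rule was applied without 1 array at a time, 63 to 97 probes were chosen. The array left out then fell on the side the rule asks for in 87.8% to 100% of them when it was a day 14 array. This was 69.1% to 97.1% when it was a day 4 array and 68% to 96.8% when it was a control array. The normalization over all 14 arrays was kept, so the array left out was not fully independent of the choice.

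Members assigned to striated muscle had the larger differences between day 4 and control, with a median of 1.49 over 10 probes. Their median for day 14 minus day 4 was -1.28. The leading member was Myh1, the fast-fibre myosin heavy chain 2x. Its levels were 6.97, 8.03, 7.76, 7.41 and 6.74 on the 5 day 14 arrays. At day 4 it ran from 8.68 to 9.92 with a median of 9.30, and the control levels were 7.33, 7.89 and 7.72. The lowest day 4 array thus stood 0.65 above the highest of all other arrays, the widest gap of any member, while day 14 and control arrays overlapped. The fold of the day 4 over the control mean was 3.11 on this scale.

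Des, desmin, the intermediate filament that ties sarcomeres together, had levels of 8.12, 8.70, 8.56, 8.15 and 7.41 at day 14. The day 4 arrays lay between 8.88 and 9.88, with a median of 9.32, and the control arrays had 8.06, 8.05 and 7.67. The day 14 arrays lay on both sides of the control arrays. Tpm2, beta-tropomyosin, measured 9.11, 10.38, 10.40, 9.74 and 8.31 at day 14. Day 4 levels spanned 10.59 to 11.91 around a median of 11.22, against 9.44, 9.66 and 9.14 in control. Day 14 replicates 2 and 3 came near the lowest day 4 array, with a gap of 0.19, and day 14 replicates 1 and 5 were below every control array. A second Tpm2 probe, which was no member, had mean levels of 7.62 at day 14, 8.19 at day 4 and 7.98 in control.

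Fhl1, a LIM-domain protein abundant in striated muscle, was represented by 2 members. One averaged 9.31 ± 0.58 at day 14, 10.88 ± 0.47 at day 4 and 9.34 ± 0.34 in control (SD, n = 5, 6 and 3). The other averaged 9.17 ± 0.56, 10.71 ± 0.59 and 9.14 ± 0.27 over the day 14, day 4 and control arrays. The day 4 minus control differences of the 2 probes were 1.55 and 1.56. Actn2, alpha-actinin of the Z disc, also had 2 members, with day 4 minus control differences of 1.65 and 1.10. Klhl41, a kelch protein needed for sarcomere stability, differed by 0.88 between day 4 and control and by -0.79 between day 14 and day 4. The M-band protein gene Myom1 and the muscle transcription factor gene Mef2c, both outside the naming rule, had day 4 minus control differences of 0.58 and 0.70. A pair of further Mef2c probes missed the separation only, with day 4 minus control differences of 1.22 and 1.28. At day 14 against control these 2 probes differed by 0.33 and 0.62 (limma adjusted p = 0.502 and 0.0458), so the second of them rose.

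**Figure D2:**
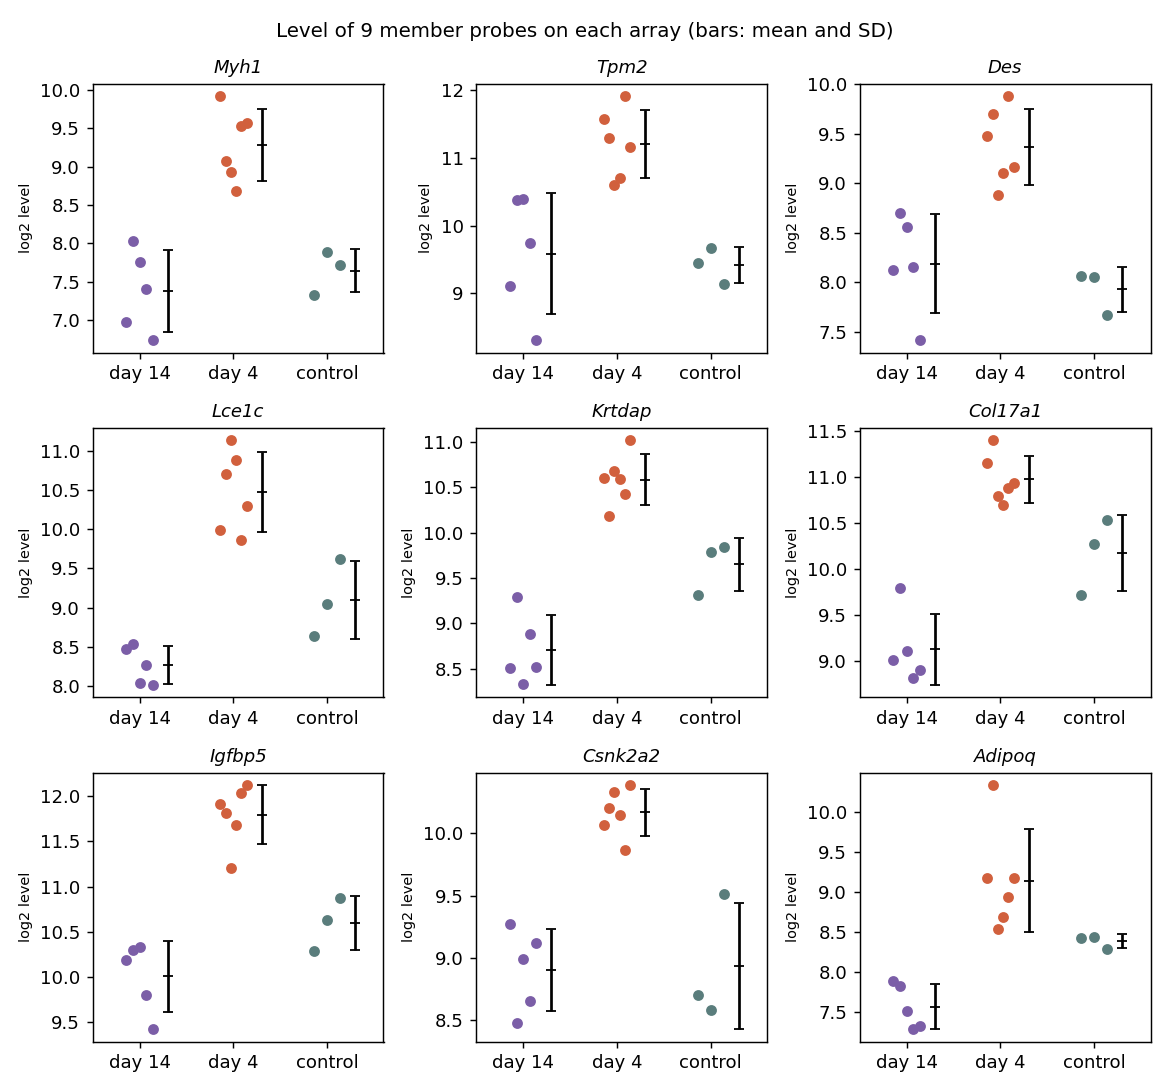
Log2 level (vertical axis) of 9 member probes on each day 14, day 4 and control array, 1 point per array, with bars for the mean and SD. Day 4 points stand above both other groups in every panel, as the rule requires; for Myh1, Tpm2 and Des the day 14 and control points overlap, and for Lce1c, Krtdap and Adipoq every day 14 point lies below every control point.

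The muscle members varied together over replicate arrays. As a description, each probe's deviations from its group means were correlated over the 14 arrays, which share depth and brightness; among 43 pairs of muscle probes of different genes the median Pearson r was 0.82, with a range of 0.57 to 0.93. Between muscle and epidermal probes the median over 140 pairs was -0.16. Day 4 replicate 5 had the highest mean of the muscle members at day 4, 9.80, and day 4 replicate 3 the lowest, 8.83. The day 14 arrays had muscle means of 7.69, 8.50, 8.42, 8.04 and 7.41, against 7.99, 8.10 and 7.80 on the control arrays, so day 14 reached both above and below control. In bulk tissue, more cells of a type and more RNA of these genes per cell cannot be told apart.

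**Figure D3:**
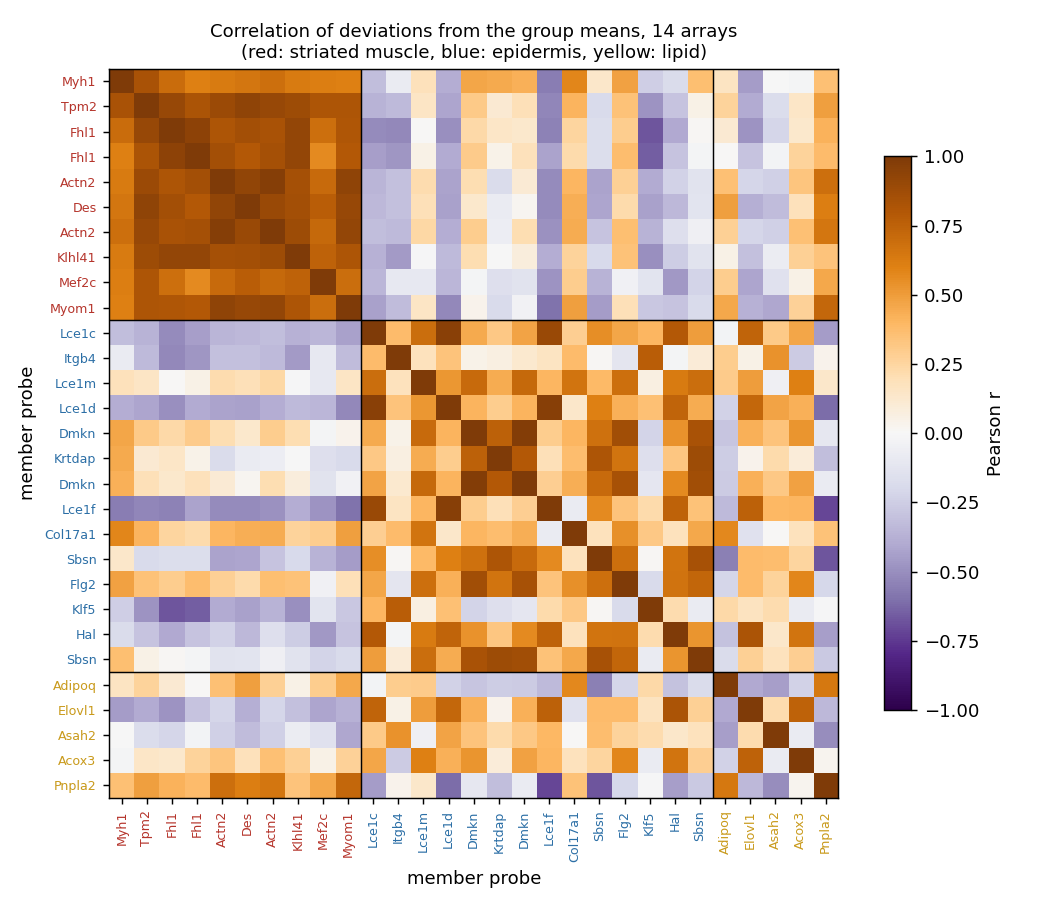
Pearson correlation over 14 arrays of each probe's deviations from its group means, for the muscle (red names), epidermal (blue) and lipid (yellow) members on both axes. The muscle block is uniformly high, with a median of 0.82; the epidermal block is mixed, with a median of 0.44. The lipid block has a median of -0.16.

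Of 15 skeletal muscle marker genes listed, 14 had a named probe, measured by 15 probes, of which 2 were members (Myh1 and Des). The day 4 mean was above both other means for all 13 probes that were no members, beside 30.7% of all 14916 probes. Of these 13, 1 rose at day 4 against control by limma, the muscle enolase gene Eno3, with a difference of 1.04 and an adjusted p of 0.027, beside 1.62% of all probes called higher in that comparison. The median day 4 minus control difference of the 13 was 1.04. Under scaling to a common median 0 of the 15 probes were called at day 4, with the median of the whole list at 1.02 in place of 1.10. At day 14 against control 0 of the 15 were called in either direction by limma, with a median difference of 0.26. Of all tested probes 5.14% were called higher and 6.11% lower, so 0 of 15 lies near that share. An unadjusted p under 0.05 was found for 0 of the 15, beside 3345 of 14916 probes. Standard errors were wide, for example 0.63 for the parvalbumin gene Pvalb at a difference of 0.76, so 0 calls do not show levels equal to control. The summed signal of the 15 probes ran from 3808 to 24409 at day 14, from 12630 to 26273 at day 4 and from 5187 to 11577 in control. The day 14 sums thus enclosed the control sums and overlapped with those of day 4. Acta1 and Atp2a1, the brightest of the 15 with day 14 means of 12.08 and 11.33, weigh most in the sum. The skeletal troponin probes Tnnt3 and Tnni2 had day 4 minus control differences of 1.46 and 1.31, with limma adjusted p of 0.071 and 0.0855.

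Promoters are shown for Myh1 and Des, as the leading muscle member and 1 of the 2, with Klhl41, whose gene held both muscle motifs searched in its promoter windows. They are the RefSeq promoter windows on GRCm38.p6, 250 bases before to 50 bases after the start, at chr11:67199852-67200151 and chr1:75360042-75360341, both on the plus strand. Capitals mark matches on either strand to TATAAA and the AP-1 motif TGANTCA in Myh1, and to the E-box CAGCTG and a MEF2 motif in Des. The MEF2 motif was searched in a loose form, CTA and TAG with 4 bases of any kind between them.
Myh1: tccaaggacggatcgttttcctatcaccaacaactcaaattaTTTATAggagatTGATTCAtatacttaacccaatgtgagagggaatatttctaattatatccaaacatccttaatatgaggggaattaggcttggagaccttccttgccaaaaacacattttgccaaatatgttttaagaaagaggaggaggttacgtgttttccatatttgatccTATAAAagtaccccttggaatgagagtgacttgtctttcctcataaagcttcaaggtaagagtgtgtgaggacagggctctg
Des: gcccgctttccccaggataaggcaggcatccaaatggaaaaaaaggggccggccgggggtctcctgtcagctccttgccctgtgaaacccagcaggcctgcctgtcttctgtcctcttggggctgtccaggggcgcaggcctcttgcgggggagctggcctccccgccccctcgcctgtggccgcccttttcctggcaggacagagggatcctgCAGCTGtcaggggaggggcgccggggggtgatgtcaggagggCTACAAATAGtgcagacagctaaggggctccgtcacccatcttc

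In Myh1 TATAAA began 32 bases before the start, and in Des the E-box began 36 bases before it. The loose MEF2 match in Des, CTACAAATAG, lay after the start, from position 7. This loose MEF2 motif occurred in 2 of 11 promoters of the 8 muscle genes, those of Des and Klhl41. It occurred in 0 of 11 epidermal promoters, and in 3.69% of 32851 promoters of the same length. CAGCTG occurred in 3 muscle promoters and 1 epidermal promoter, and in 16.3% of all. TATAAA occurred in 4 and 5, beside 13.6% of all. The motifs were picked after the members' names were known, and a match describes letters in this window only.

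Members of the epidermis had the larger differences between day 14 and day 4. Over 14 epidermal probes the median log2 difference was -1.71 for day 14 minus day 4 and 0.83 for day 4 minus control. The Lce1 genes, which encode late cornified envelope proteins, supplied 4 members. Lce1c had levels of 8.48, 8.53, 8.04, 8.26 and 8.01 at day 14. Its lowest, median and highest day 4 levels were 9.86, 10.50 and 11.13, with 8.63, 9.05 and 9.62 in control. All day 14 arrays lay below all control arrays, and all control arrays below all day 4 arrays. Lce1m averaged 8.72 ± 0.45 at day 14, 10.94 ± 0.34 at day 4 and 9.76 ± 0.51 in control (SD, n = 5, 6 and 3). Lce1d and Lce1f had day 14 minus day 4 differences of -1.65 and -1.14. The Lce1 genes are near-identical copies of each other, and whether each probe reads 1 of them was not tested, so their gene-level values are uncertain.

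Besides the Lce1 genes, other markers of keratinocyte differentiation were also members. Krtdap, keratinocyte differentiation-associated protein, measured 8.51, 9.29, 8.33, 8.88 and 8.52 at day 14. At day 4 it ran from 10.18 to 11.02 with a median of 10.60, and the control levels were 9.32, 9.79 and 9.84. The 3 groups did not overlap. Dmkn, dermokine, was present with 2 probes that differed by -2.15 and -1.95 between day 14 and day 4. Sbsn, suprabasin, was present with 2 probes that differed by -1.33 and -1.11. Flg2, filaggrin-2, and Hal, the histidine ammonia-lyase that makes urocanic acid in the epidermis, lay outside the naming rule and differed by -1.77 and -1.28.

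Probes of basal-layer genes behaved unevenly. Col17a1, the hemidesmosomal collagen XVII, had levels of 9.02, 9.80, 9.12, 8.82 and 8.91 at day 14. The day 4 arrays lay between 10.70 and 11.40, with a median of 10.91, and the control arrays had 9.72, 10.28 and 10.53. Day 14 replicate 2 was above control replicate 1, and the other day 14 arrays were below all controls. Itgb4, the integrin beta-4 of hemidesmosomes, measured 8.57, 7.94, 8.13, 8.07 and 8.33 at day 14. Day 4 levels spanned 9.56 to 10.02 around a median of 9.65, against 7.78, 8.34 and 9.06 in control. The control arrays of this Itgb4 probe spread widely and enclosed the day 14 arrays. A further Itgb4 probe, which was no member, differed by -0.31 at day 14 against control (limma adjusted p = 0.032). Klf5, a transcription factor of proliferating epithelium that lay outside the naming rule, averaged 9.04 ± 0.16 at day 14, 10.48 ± 0.14 at day 4 and 9.79 ± 0.28 in control (SD, n = 5, 6 and 3).

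The epidermal members came partly from gene clusters. On chromosome 7, Sbsn, Dmkn and Krtdap follow each other with 0 coding genes between them. On chromosome 3, Lce1c and Lce1d are direct neighbours, Lce1f is 1 coding gene further on, and Flg2 lies 2 coding genes beyond Lce1m. Their promoters are shown for the chromosome 7 trio, because these direct neighbours were all members and had a match to the AP-1 motif. The windows are chr7:30751221-30751520 for Sbsn, chr7:30763506-30763805 for the first of 3 Dmkn promoters and chr7:30787655-30787954 for Krtdap, all RefSeq, GRCm38.p6, plus strand. Capitals mark the AP-1 motif TGANTCA, the motif of Krüppel-like factors (CCACCC) and the TATA box (TATAAA), on either strand.
Sbsn: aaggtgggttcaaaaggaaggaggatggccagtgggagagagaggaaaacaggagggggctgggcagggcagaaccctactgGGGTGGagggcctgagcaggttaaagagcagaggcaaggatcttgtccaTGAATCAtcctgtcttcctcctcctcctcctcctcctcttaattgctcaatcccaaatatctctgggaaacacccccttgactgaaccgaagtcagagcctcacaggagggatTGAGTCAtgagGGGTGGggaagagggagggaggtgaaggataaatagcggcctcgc
Dmkn: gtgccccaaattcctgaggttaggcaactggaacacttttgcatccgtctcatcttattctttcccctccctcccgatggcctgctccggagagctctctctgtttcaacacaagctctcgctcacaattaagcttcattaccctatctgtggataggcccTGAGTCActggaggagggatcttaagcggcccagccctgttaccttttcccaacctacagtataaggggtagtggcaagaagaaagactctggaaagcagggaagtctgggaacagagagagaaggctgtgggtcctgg
Krtdap: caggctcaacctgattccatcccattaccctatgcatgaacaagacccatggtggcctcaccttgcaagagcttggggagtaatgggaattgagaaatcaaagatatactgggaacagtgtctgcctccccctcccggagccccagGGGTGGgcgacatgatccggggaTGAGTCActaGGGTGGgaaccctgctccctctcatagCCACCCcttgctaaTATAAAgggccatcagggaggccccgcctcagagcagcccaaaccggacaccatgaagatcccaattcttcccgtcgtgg

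Each of these 3 windows was chosen for a match to TGANTCA, so its presence in all 3 is no result. TGANTCA began 119 and 6 bases before the start in Sbsn, 89 in Dmkn and 81 in Krtdap. It occurred in 7 of 11 promoters of 9 epidermal member genes, from 5 genes (Dmkn, Flg2, Hal, Krtdap and Sbsn), in 2 of 11 muscle promoters, and in 7.81% of all 32851 promoters. CCACCC occurred in 5 epidermal and 5 muscle promoters, beside 31.5% of all. Of the 53 member genes, 47 had a promoter in the RefSeq table.

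Epidermal members varied less uniformly over replicates than muscle members did. The median r among 89 epidermal pairs was 0.44, with a range of -0.22 to 0.96. The mean of the epidermal members was 8.16, 8.53, 8.03, 8.26 and 8.03 on the day 14 arrays, against 8.59, 9.06 and 9.30 in control. At day 4 it ran from 9.64 in replicate 5 to 10.14 in replicate 3, so the day 4 array that was highest for muscle was lowest for epidermis and the reverse. The groups did not overlap in this mean.

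**Figure D4:**
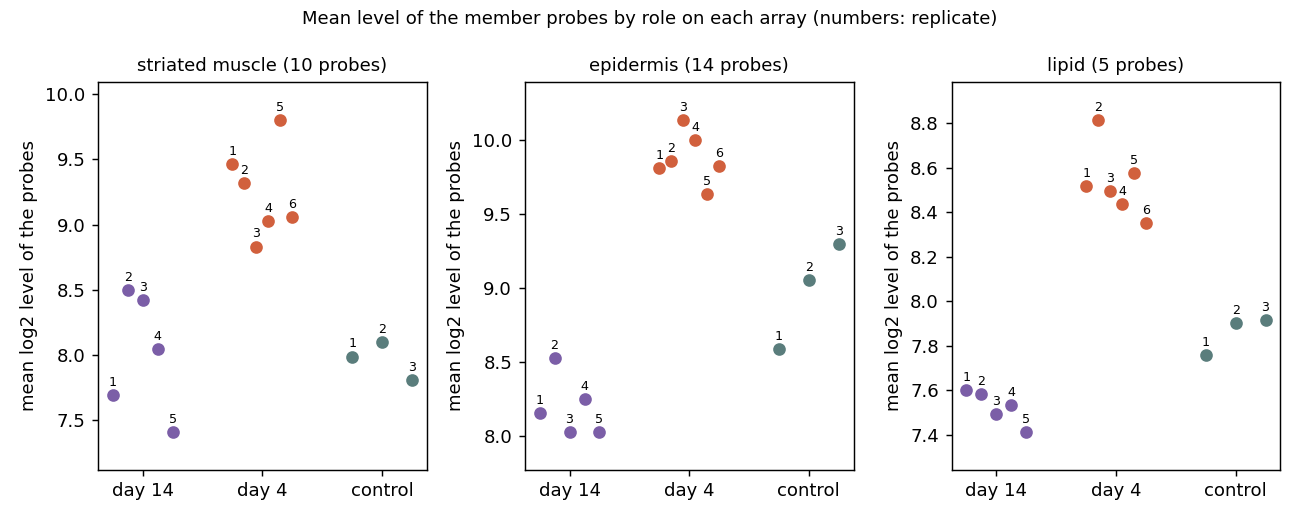
Mean log2 level of the muscle, epidermal and lipid members (vertical axes) on each day 14, day 4 and control array, numbered by replicate. Day 14 muscle means run from 7.41 to 8.50 and enclose the control means, whereas day 14 epidermal means, 8.03 to 8.53, all lie below the control means, 8.59 to 9.30.

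Of the lipid genes, Adipoq, which encodes the fat cell hormone adiponectin, had levels of 7.89, 7.83, 7.52, 7.29 and 7.33 at day 14. Its lowest, median and highest day 4 levels were 8.54, 9.05 and 10.33, with 8.43, 8.44 and 8.29 in control. The highest day 4 value, of replicate 2, stood apart from the other 5. Pnpla2, adipose triglyceride lipase, measured 8.28, 8.33, 8.28, 8.50 and 8.25 at day 14. At day 4 it ran from 8.99 to 9.97 with a median of 9.45, and the control levels were 8.93, 8.99 and 8.86. Its separation was the narrowest of all members, and the day 14 arrays were below the controls. Elovl1, a fatty acid elongase, Acox3, a peroxisomal acyl-CoA oxidase, and Asah2, a neutral ceramidase, were outside the naming rule, with day 4 minus control differences of 0.70, 0.63 and 0.73. None of these is on the adipocyte marker list. Lipid members did not vary together: over 10 pairs the median r of the deviations was -0.16, with a range of -0.50 to 0.75. Of 10 adipocyte marker genes listed, 4 had a named probe (Adipoq, Lep, Plin4 and Pnpla2), and their summed signal was 771 to 848 at day 14, 1399 to 3146 at day 4 and 1222 to 1465 in control.

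Among the members outside these roles, Igfbp5, which binds insulin-like growth factors, had 2 probes. Its brighter member measured 10.19, 10.29, 10.33, 9.80 and 9.42 at day 14. The day 4 arrays lay between 11.21 and 12.13, with a median of 11.86, and the control arrays had 10.28, 10.63 and 10.88. The day 14 and control arrays of this probe overlapped. The second member differed by -2.03 between day 14 and day 4 and by 1.01 between day 4 and control. A further Igfbp5 probe missed the separation by 0.03 and differed by 2.07 between day 4 and control. Its day 14 minus control difference was 0.55, against -0.59 and -1.02 for the members, so the 3 probes did not agree in sign.

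Csnk2a2, the alpha-prime catalytic subunit of protein kinase CK2, had 2 members. The first measured 9.27, 8.48, 8.99, 8.65 and 9.12 at day 14. Day 4 levels spanned 9.87 to 10.39 around a median of 10.18, against 8.70, 8.58 and 9.51 in control. Control replicate 3 was above every day 14 array. The second member had differences of 1.21 for day 4 minus control and -1.16 for day 14 minus day 4. Hoxa7, a homeobox transcription factor, measured 8.59, 8.04, 8.26, 8.16 and 8.52 at day 14. Its lowest, median and highest day 4 levels were 9.13, 9.34 and 9.92, with 8.33, 8.15 and 8.48 in control. The day 14 and control means of Hoxa7 differed by less than 0.01.

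Serpina3b, of a family of serine protease inhibitors, had the largest difference of all members between day 14 and day 4. It measured 7.99, 8.23, 7.22, 7.62 and 7.52 at day 14. At day 4 it ran from 9.85 to 10.30 with a median of 10.12, and the control levels were 8.08, 9.64 and 9.20. Control replicate 1 lay below the highest day 14 array. Aldh3a1, an aldehyde dehydrogenase, measured 7.79, 8.07, 7.53, 7.83 and 7.28 at day 14. The day 4 arrays lay between 9.12 and 9.90, with a median of 9.60, and the control arrays had 8.49, 8.87 and 8.77. Prxl2a, a peroxiredoxin-like protein, averaged 7.78 ± 0.16 at day 14, 9.57 ± 0.20 at day 4 and 8.72 ± 0.35 in control (SD, n = 5, 6 and 3). For Aldh3a1 and Prxl2a the 3 groups did not overlap.

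Il6ra, the alpha chain of the interleukin-6 receptor, averaged 8.72 ± 0.16 at day 14, 9.50 ± 0.41 at day 4 and 8.33 ± 0.61 in control (SD, n = 5, 6 and 3). Auts2, a partner of Polycomb complexes, had day 4 minus control and day 14 minus day 4 differences of 0.95 and -1.29. For Serpinb6e, another serine protease inhibitor, these were 0.91 and -1.10, and for the uncharacterised gene 6430548M08Rik 0.79 and -0.77. Col1a1, the type I collagen alpha-1 chain, had 0.62 and -0.86. The other named members, given here so that all are accounted for and outside the naming rule, were Ahnak, Bcl6, Ccdc3, Clca2, Cyp2f2, H2-M2, Ipmk with 2 probes, Mfap3l, Msl2, Nme7 with 2 probes, Plek2, Rab3d, Serpinb6a, Sh3d21, Slc24a3, Stk40 and Tsc22d3. Among these, Bcl6 encodes a transcriptional repressor, Cyp2f2 a cytochrome P450 and Tsc22d3 a leucine-zipper protein induced by glucocorticoids. Their day 4 minus control differences were 0.74, 0.75 and 0.63.

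Other probes of the same genes mostly followed the members. Of 18 member genes with several named probes, 5 had all of them among the members. The other 13 genes had 17 further probes, and 15 of these had a day 4 mean above both other means, beside 30.7% of all probes. The exceptions were a second Mfap3l probe, with means of 6.84 at day 14, 6.80 at day 4 and 7.18 in control, and 1 of the 2 further Nme7 probes, with 6.86, 6.90 and 6.92. The 17 probes read member genes on the same arrays that the rule used, so a day 4 peak in them is no independent support. At day 14 against control 7 of the 17 fell by limma, those of Hal, Itgb4, Krtdap, Mfap3l and Sbsn and both of Col17a1, and 1 of Mef2c rose. Of all tested probes 6.11% were called lower and 5.14% higher. Under scaling to a common median 0 of the 17 were called, and leaving out 1 array at a time gave 2 to 7 lower, with 2 without control replicate 2 or 3, and 0 to 1 higher. For the 8 genes with 2 members, r between the probes' deviations lay between 0.62 (Ipmk) and 0.98 (Dmkn).

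Day 14 against control is the comparison for which the rule sets no direction, and it was tested by limma over all 14916 probes. Of the 65 members 21 fell at day 14 and 0 rose, at an adjusted p under 0.05; at an unadjusted p under 0.05 1 member, an unnamed probe, was higher, and cyclic loess called 1 member higher. Beside these 32.3%, 6.11% of all tested probes were called lower and 5.14% higher. The median difference was -0.26 over the members, with a range of -1.25 to 0.54, and 0.00 over all probes, which the normalization holds near 0. All 5 day 14 arrays lay below all 3 control arrays for 18 members, against 10.6% of all probes, and above them for 0 members, against 8.17%. Members vary more between replicates than most probes, with a median SD of 0.25 at day 14, 0.27 at day 4 and 0.25 in control, against 0.09, 0.09 and 0.07 over all tested probes.

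The roles differed in this comparison by their counts, though no test of a difference between roles was made. Of 14 epidermal probes 10 fell, with a median of -0.80, while under scaling to a common median 0 passed the test at a median of -0.78. Dmkn had the strongest epidermal difference, a log2 difference of -1.20 and a standard error of 0.24 (adjusted p = 0.0043 by limma), with all day 14 arrays below all controls. Col17a1 had a log2 difference of -1.04 and a standard error of 0.22 (adjusted p = 0.00704 by limma), Krtdap a log2 difference of -0.94 and a standard error of 0.21 (adjusted p = 0.00923 by limma), and Lce1m a log2 difference of -1.03 and a standard error of 0.27 (adjusted p = 0.0222 by limma). Klf5 and Hal also fell, by 0.76 and 0.68 on the log2 scale (limma adjusted p = 0.00111 and 0.0198). The 4 epidermal probes that did not pass were those of Itgb4, Lce1c, Lce1d and Lce1f, with differences of -0.19, -0.84, -0.66 and -0.31.

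By limma 0 of the 10 muscle members passed the test, and 0 did at an unadjusted p under 0.05, while 1 Mef2c probe that was no member rose, as given above. Beside 6.11% of all probes called lower and 5.14% higher, 0 of 10 does not set the muscle members apart. The differences of the 10 members lay between -0.26 and 0.26 with a median of 0.05. Myh1 had a log2 difference of -0.26 and a standard error of 0.30 (adjusted p = 0.668 by limma), and Des a log2 difference of 0.26 and a standard error of 0.27 (adjusted p = 0.626 by limma). Of the 5 lipid probes 1 fell, Pnpla2, with a log2 difference of -0.60 and a standard error of 0.18 (adjusted p = 0.0441 by limma). Adipoq had a log2 difference of -0.82 and a standard error of 0.30 (adjusted p = 0.108 by limma), and all its day 14 arrays were below all controls. Of the 32 probes under other roles 8 fell. Serpina3b had a log2 difference of -1.25 and a standard error of 0.28 (adjusted p = 0.0103 by limma), Aldh3a1 a log2 difference of -1.01 and a standard error of 0.18 (adjusted p = 0.00184 by limma) and Prxl2a a log2 difference of -0.94 and a standard error of 0.15 (adjusted p = 0.00104 by limma). The rest were Ccdc3, Cyp2f2, Mfap3l, Sh3d21 and the dimmer member of Igfbp5, between -0.40 and -1.02. Of the 4 unnamed probes 2 fell. The 21 calls rest on the 3 control arrays: without control replicate 2 there were 9, without control replicate 3 there were 11, and under scaling to a common median 0. Krtdap, Lce1m, Serpina3b, Pnpla2, 1 or both Sbsn probes and the dimmer Igfbp5 member lost their call when either of these control arrays was left out.

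**Figure D5:**
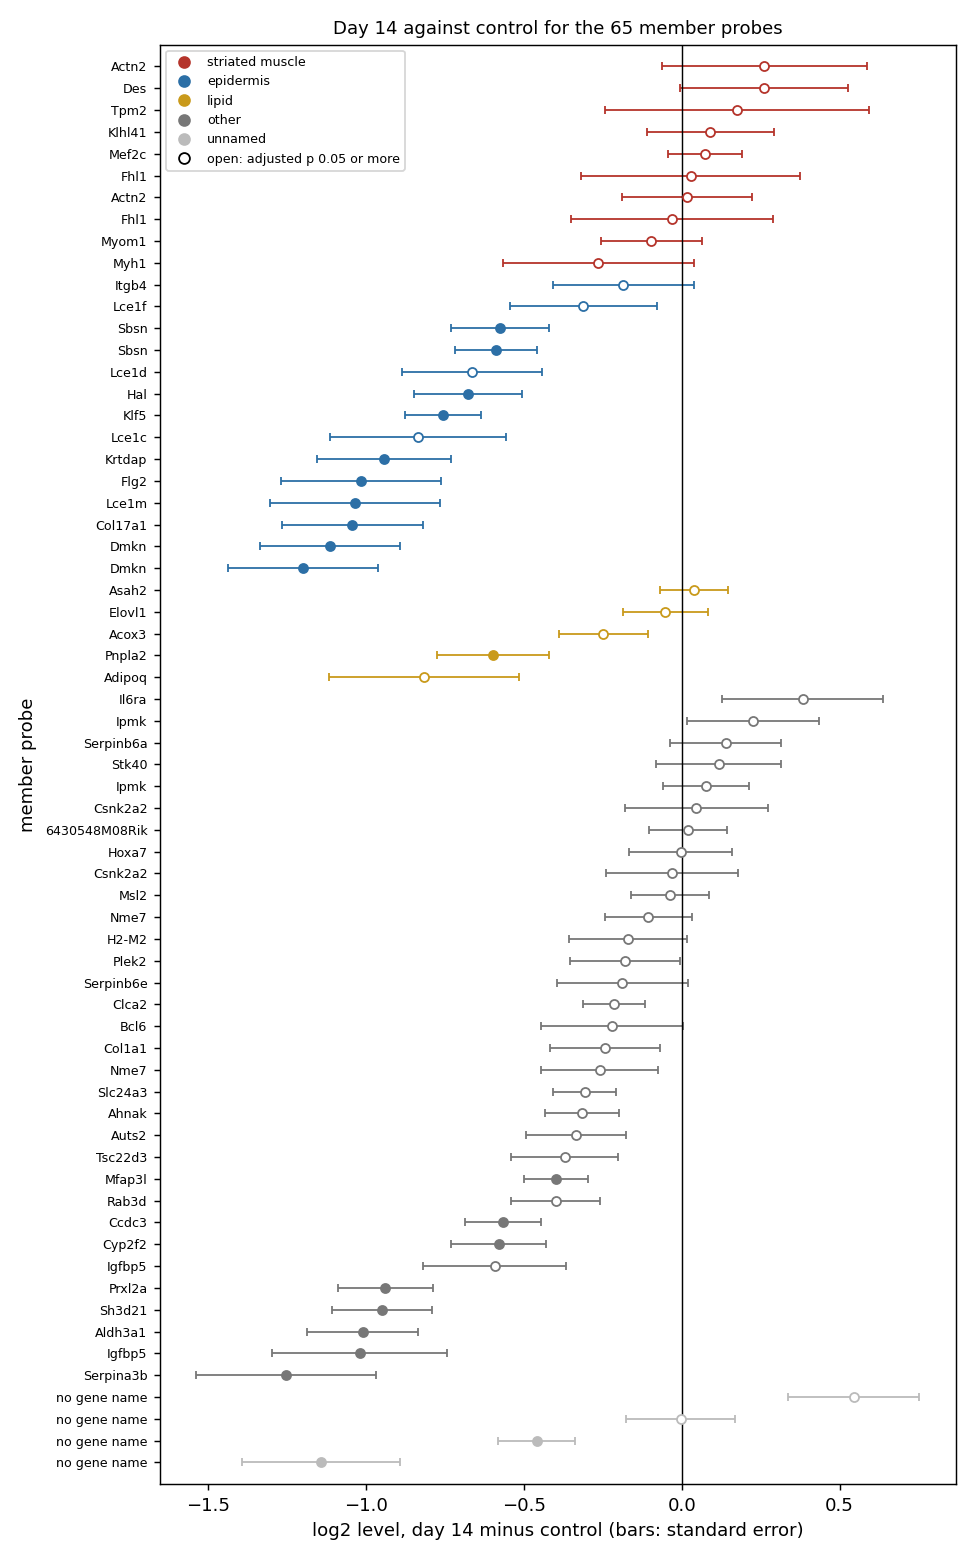
Log2 difference between day 14 and control for each of the 65 members (horizontal axis), with standard errors as bars, by role from the top. Filled points passed limma's test at an adjusted p under 0.05, open points did not; 10 of 14 epidermal points are filled and all lie left of 0, and 0 of 10 muscle points are filled.

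A list of 12 keratinocyte marker genes gave the same comparison for further probes. It had 9 genes with a named probe, measured by 13 probes, 3 of them members (1 of Krtdap and 2 of Sbsn); Krt1, Flg and Dsg1a had none. At day 14, 12 of the 13 fell against control, including 9 of 10 that were no members, beside 6.11% of all tested probes. The list median was -0.68. The 10 include a further probe each of the member genes Krtdap and Sbsn, and both fell. Under scaling to a common median 0 of the 13 passed, at a median of -0.86, and without control replicate 2 it was 4. Among them, the suprabasal keratin gene Krt10 differed by -1.40 (limma adjusted p = 0.00816), the cornified envelope gene Lor by -1.22 (limma adjusted p = 0.0358), the basal gene Krt15 by -1.10 (limma adjusted p = 0.00048) and Trp63, the master transcription factor of stratified epithelium, by -1.23 (limma adjusted p = 0.000277). At day 4 against control 1 of the 10 probes that were no members rose, that of Krt5, by 0.34 (limma adjusted p = 0.0267), beside 1.62% of all probes, and under scaling to a common median 0 of the 13 were called. The Krt5 probe was dim, with means of 6.82 at day 14, 7.22 at day 4 and 6.88 in control. The day 4 mean was above both other means for 7 of the 10, beside 30.7% of all probes. The further Krtdap and Sbsn probes are among the 7 and are no independent support for a day 4 peak. Ivl and Trp63 had day 4 means below control, with differences of -0.96 and -0.38 for the 2 Ivl probes and -0.37 for Trp63, so the list did not peak at day 4 as a whole. The summed signal ran from 8195 to 15531 at day 14, from 27296 to 36277 at day 4 and from 16051 to 29692 in control.

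Lists of markers of other cells differed at day 14 against control. Of 4 T and NK cell probes, for 15 genes listed, 1 rose, and the 1 neutrophil probe, for 15 genes listed, fell. Beside them, 5.14% of all tested probes were called higher and 6.11% lower. The neutrophil probe, of Ltf, was dim, with means of 6.93 at day 14, 6.90 at day 4 and 7.49 in control. Called in either direction were 0 of 6 endothelial and angiogenesis probes and 0 of 2 mast cell and eosinophil probes. Of 10 probes of 8 monocyte and macrophage marker genes, out of 15 listed, 7 rose at day 14 against control, beside 5.14% of all probes, and the 10 had a summed signal of 1716 to 2689 at day 14, 1359 to 1894 at day 4 and 1286 to 1330 in control. Of these probes 0 were members. Of 10 mesothelial and mesothelioma marker genes only Pdpn had a named probe, which was no member, with 9.34 ± 0.20 at day 14, 8.90 ± 0.45 at day 4 and 8.89 ± 0.10 in control (SD, n = 5, 6 and 3), and it did not pass at day 14 against control (limma adjusted p = 0.229). The part of these cells in the lower level of the epidermal members at day 14 was not tested.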

How the data were processed

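The authors deposited, for 45281 probes on 14 arrays, probe intensity values on a linear scale that the file headers call signals, with no background subtracted as far as the values show, and a detection p-value beside each, per the file headers in steps of 1 over 936. The authors also deposited log2 values for 7016 probes, which equal log2 of the same signals, quantile-normalized over those probes, except that the columns of control replicates 1 and 2 are exchanged between the deposited tables. Which of the 2 carries the right label was not settled; both are control arrays, so no group mean depends on it. The scanner software is not given in the sources used here, nor is a slide or scan batch.

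Signals plus 16 were quantile-normalized over all probes and taken to log2. Tests covered the 14916 probes with 3 or more arrays at a detection p under 0.05, all 65 members among them because the rule asks for detection at day 4. Group means were fitted to all 14 arrays with limma 3.58.1 in R 4.3.3 (lmFit, eBayes, two-sided), with Benjamini-Hochberg adjustment over the 14916 probes of each of 3 comparisons. The number of arrays limits the precision. The fit was tested on simulated data. Gene symbols came from GEO's platform annotation, which paired 6083 probes with 1 symbol each and 3 with several; the other probes are unnamed here, and named probes are mostly the widely detected ones. Promoters came from RefSeq. No pairing was used: deviations of same-numbered arrays correlated between -0.21 and 0.16.

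The members and gene lists were chosen with earlier results of these data known. The naming rule took the first 25 symbols ranked by the smaller of the day 4 differences, plus members found in the lists, which gave 28 symbols on 34 probes. Alternatives changed the background correction, offset, normalization, detection filter, margins, arrays, weights and block. Those without the dimmest arrays and without normalization, and the values of lists and roles under each setting, were chosen after seeing the data.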

Additional observations from a re-analysis of the deposited data

Results flagged for a closer look

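In 2 of 76 groups of 5 or 6 values checked among the named probes, 1 array stood apart from the rest of its group; chance alone sets apart about 1 group in 20. For Adipoq (ILMN_2738082), day 4 replicate 2 had a log2 level of 10.33, while the other 5 day 4 arrays lay between 8.54 and 9.18. That array also had the fewest detected probes of its group, and whether the level came from the tissue sampled or from the array was not tested. For Auts2 (ILMN_1213708), day 14 replicate 2 had 7.96, while the other 4 day 14 arrays lay between 7.61 and 7.69.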

How the results depend on the processing

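The choice of members turned on the normalization and the margins. The rule took 145 probes after normexp correction with inferred negative controls, 0 after scaling to a common median, 0 without normalization, 12 with median scaling and without the 2 dimmest arrays, 16 with a margin of 1 and 178 with no margin; leaving out 1 array gave 63 to 97. Members lower at day 14 than in control numbered 0, and epidermal ones 0, with median scaling, with median scaling without the 2 dimmest arrays and without normalization; cyclic loess gave 1 member called higher. In the same 3 settings day 14 against control had 252, 829 and 209 probes called, day 14 against day 4 had 752, 1583 and 1046, and day 4 against control had 177, 173 and 219. Calls for day 14 against control divided into 767 higher and 912 lower, and with median scaling into 188 higher and 64 lower. With the replicate block, which no pairing backs, 459 probes were called for day 4 against control and 14 members were lower at day 14. The median of the members for day 14 minus day 4 was -0.84, -0.84 and -0.82 in the 3 settings and -1.73 with normexp, where day 4 minus control was 1.18. Leaving out 1 array gave 9 to 22 members lower and 0 higher at day 14, 4 to 11 epidermal and 0 muscle probes lower, 1043 to 1860 calls in day 14 against control, 276 to 833 in day 4 against control and 2048 to 2442 in day 14 against day 4, with medians of -0.41 to -0.22, 0.67 to 0.88 and -1.19 to -1.12 for day 14 minus control, day 4 minus control and day 14 minus day 4. The causes were not tested. Among values of named probes under all alternatives, 865 kept their side of the threshold, 71 lost the call, 16 gained it and 0 called values changed sign. Pnpla2, Sbsn (ILMN_2951407) and the dimmer Igfbp5 member lost theirs under several of the settings that leave out 1 array. Signals near background limit what can be seen for dim members, since background stays in every level.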
